A study of Mus musculus with 6 samples.

Results

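Vitamin K dependent proteins were examined in newborn mouse osteoblasts and chondrocytes through 7 genes chosen by name, which were 7 of the 23364 gene symbols in the deposited table. The members were Bglap and Bglap2 (osteocalcin), Mgp (matrix Gla protein), Ucma (Gla-rich protein of cartilage), Gas6 (a secreted receptor ligand), Ggcx (the carboxylase) and Vkorc1 (the reductase that recycles vitamin K). Osteoblasts of the calvaria, the skull roof, gave 3 libraries; these cells had been sorted for green fluorescent protein (GFP), are labelled Sp7 positive and carry the name Sp7-GFP in their descriptions, with no further account of the reporter allele. They were set against 3 libraries of wild-type (WT) chondrocytes from rib cartilage. Both cell types came from C57BL/6 pups labelled P1, postnatal day 1. Liberase was used to free the osteoblasts, and Pronase with Collagenase D to free the chondrocytes, and sorting is stated for the osteoblasts alone, so cell type, site, sort, genotype label and enzyme cannot be told apart. The labels do not say how many animals went into a library, so p-values cover only the spread between these libraries.

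Vitamin K serves as a cofactor for Ggcx, which converts chosen glutamate residues of secreted proteins into gamma-carboxyglutamate, or Gla. Gla residues bind calcium, which lets osteocalcin attach to bone mineral and gives Mgp its role as an inhibitor of mineral in cartilage and arteries. Each carboxylation leaves vitamin K oxidized, and Vkorc1, the target of warfarin, returns it to use. RNA-seq shows transcripts only and says nothing of how far any protein was carboxylated.

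The osteocalcin genes lie side by side on chromosome 3 as Bglap, Bglap2 and a further copy, Bglap3. Their coding sequences are shown because they set how well reads can be told apart between the copies. In build GRCm38 (GENCODE M21), on the minus strand, they span chr3:88383638-88384415 for Bglap, chr3:88377873-88378650 for Bglap2 and chr3:88368759-88369536 for Bglap3, introns included. Capitals in Bglap and Bglap2 mark the bases that differ between those 2 copies, and capitals in Bglap3 mark its differences from Bglap2.
Bglap: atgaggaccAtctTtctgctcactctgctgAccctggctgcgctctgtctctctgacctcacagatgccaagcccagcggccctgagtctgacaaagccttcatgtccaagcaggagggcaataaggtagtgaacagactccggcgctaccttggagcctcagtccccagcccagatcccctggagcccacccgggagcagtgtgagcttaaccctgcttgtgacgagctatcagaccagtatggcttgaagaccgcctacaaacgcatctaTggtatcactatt
Bglap2: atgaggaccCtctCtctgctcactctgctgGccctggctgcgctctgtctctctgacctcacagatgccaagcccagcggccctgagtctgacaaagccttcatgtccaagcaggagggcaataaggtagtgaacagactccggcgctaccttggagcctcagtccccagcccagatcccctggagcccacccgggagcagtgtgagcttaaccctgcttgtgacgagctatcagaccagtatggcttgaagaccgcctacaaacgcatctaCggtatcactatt
Bglap3: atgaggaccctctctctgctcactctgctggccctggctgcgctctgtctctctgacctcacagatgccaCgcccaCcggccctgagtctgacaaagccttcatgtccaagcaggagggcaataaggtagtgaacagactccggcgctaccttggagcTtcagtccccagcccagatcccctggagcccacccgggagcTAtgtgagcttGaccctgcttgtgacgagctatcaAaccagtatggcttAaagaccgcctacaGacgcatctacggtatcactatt

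Bglap and Bglap2 differed at 4 of 285 coding bases (98.6% identity), and Bglap2 and Bglap3 at 9 (96.8%). Of all windows of 50 bases in the Bglap transcript 74.7% also occurred in Bglap2, and of windows of 100 bases 56.3% did. Against Bglap3 those shares were 20.5% and 0%. The division of reads between Bglap and Bglap2 is therefore uncertain, and the sum of the copies is given beside them. Whether reads that fit several copies were dropped, split or counted at each is not stated, and that could move the sum too.

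Upstream sequence of the member that was highest in each cell type relative to the other is shown next, since Runx2, a regulator of osteoblasts and of maturing cartilage, is known to bind the Bglap promoter. The RefSeq promoter table (GRCm38.p6) held 5 of the 7 members, without Mgp and Bglap2. Each sequence is the 250 bases before the transcription start, from chr3:88384467-88384716 on the minus strand for Bglap and chr2:4975872-4976121 on the plus strand for Ucma. Capitals mark the RUNX core ACCACA in both, and in Bglap also the homeodomain core AATTA and the TATA box TATAAA.
Bglap upstream: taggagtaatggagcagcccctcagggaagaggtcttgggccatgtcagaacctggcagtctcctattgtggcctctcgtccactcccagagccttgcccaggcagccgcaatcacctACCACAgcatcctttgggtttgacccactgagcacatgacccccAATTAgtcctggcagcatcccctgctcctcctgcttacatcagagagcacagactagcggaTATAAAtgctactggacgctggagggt
Ucma upstream: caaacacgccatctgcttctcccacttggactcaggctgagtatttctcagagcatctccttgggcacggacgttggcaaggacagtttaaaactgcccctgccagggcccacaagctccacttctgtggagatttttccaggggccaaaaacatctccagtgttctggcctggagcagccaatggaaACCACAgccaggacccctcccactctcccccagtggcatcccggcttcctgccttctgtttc

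ACCACA began at -132 in Bglap and at -62 in Ucma, counted back from the transcription start, and the windows of Ggcx, Vkorc1 and Gas6 did not hold it on either strand. It occurred on either strand in 14.0% of 32851 promoter windows of the same length. AATTA, which holds the letters shared by many homeodomain sites, began at -88 in Bglap and occurred in 25.0% of windows. TATAAA began at -27 in Bglap and occurred in 12.4%. The Gas6 window held 4 copies of the GC box CCGCCC, against 1 each for Ggcx and Vkorc1 and 0 for Bglap and Ucma, with the box present in 32.7% of windows. The SOX core ACAAT, also searched on either strand, had no match in the Ucma window and 1 in the Bglap window, at -185 on the opposite strand, left in lower case, and it occurred in 27.7% of windows. No motif match overlaps another in the sequences shown. A match describes the letters only.

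Values are RPKM, reads scaled to transcript length and library depth, which allows levels to be compared between genes. An error after ± is the SD over the 3 libraries of a group (n = 3 each) unless SE is written. Estimated depth was 26910000 to 35860000 reads per library. Of the 11218 genes tested, 69% had a Benjamini-Hochberg adjusted p under 0.05 in limma and are termed called, 55.5% as higher in osteoblasts and 13.5% as lower, so a call by itself sets a member little apart. The median log2 difference of all tested genes was 0.43, and this offset depended on scaling: median-of-ratios scaling moved it by -0.42, to 0.01, with 3345 genes then called higher and 3533 lower, against 6224 and 1512 with RPKM as deposited. Markers followed the labels: all 5 osteoblast markers (Sp7, Runx2, Col1a1, Ibsp and Alpl) were called higher and all 5 chondrocyte markers (Col2a1, Acan, Sox9, Col9a1 and Matn1) lower in osteoblasts. Libraries correlated across tested genes at r of 0.992 to 0.994 within osteoblasts and 0.961 to 0.986 within chondrocytes. Chondrocyte replicate 3 stood apart in Col1a1, at 7765 RPKM against 2270 and 2259 in replicates 1 and 2, and chondrocyte replicate 2 in the cartilage gene Matn1, at 46.6 RPKM against 3.12 and 3.10.

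All 7 members passed the filter on low values and each was called. Bglap and Bglap2 reached the level of the filter (1 RPKM in 3 libraries) in the osteoblast libraries alone, and Ucma would not have passed without the chondrocyte libraries, so the count of members called carries no weight. Bglap, Bglap2 and Gas6 were higher in osteoblasts, while Ucma, Mgp, Vkorc1 and Ggcx were lower. The size of the differences split the members: the log2 differences of the 5 Gla proteins ran from -8.66 to 7.21, whereas those of the enzymes were -0.30 and -0.39. Groups did not overlap for 6 of 7 members, 3 higher and 3 lower in osteoblasts, Vkorc1 being the exception. Among all tested genes groups did not overlap for 75.6%, made up of 60.4% higher and 15.3% lower in osteoblasts. The median of the 7 log2 differences was -0.30.

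**Figure D1:**
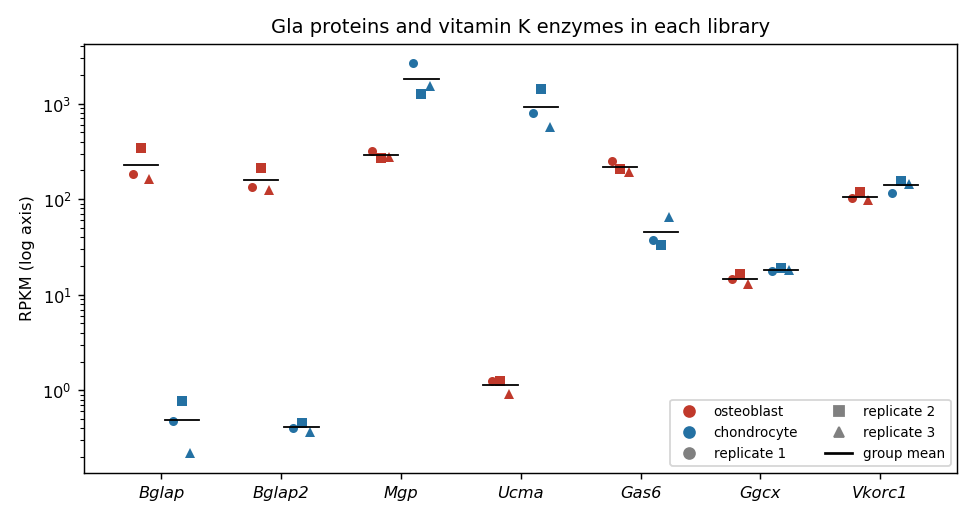
RPKM of each member in each library on a log axis, with osteoblasts (red) left of chondrocytes (blue), a symbol for each replicate and a black line at the group mean. Bglap, Bglap2 and Ucma stand far apart between the cell types, Mgp and Gas6 less so, and Ggcx and Vkorc1 lie at nearly the same height in both.

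Osteocalcin is among the most abundant proteins of bone besides collagen and is made by mature osteoblasts. Bglap stood at 182, 341 and 163 RPKM in osteoblast replicates 1 to 3, against 0.475, 0.764 and 0.218 RPKM in chondrocytes. Bglap2 stood at 134, 213 and 125 RPKM in osteoblasts, against 0.402, 0.457 and 0.370 RPKM in chondrocytes. Osteoblast replicate 2 was the highest for each copy, and every osteoblast library lay far above every chondrocyte library. In bulk libraries fewer cells of a kind and less RNA per cell cannot be told apart.

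Mean Bglap was 229 ± 97.9 RPKM in osteoblasts and 0.486 ± 0.273 RPKM in chondrocytes. It was 471-fold higher, with a log2 difference of 7.21 ± 0.28 (SE) and a limma adjusted p of 2.47e-06. Mean Bglap2 was 157 ± 48.8 RPKM in osteoblasts and 0.410 ± 0.0441 RPKM in chondrocytes. It was 384-fold higher (log2 difference 6.77 ± 0.20 SE, limma adjusted p = 7.71e-07). Log2 differences are of log2(RPKM + 1), which understates the change of genes near 0 in one group.

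The chondrocyte values of osteocalcin rested on few reads. By the depth estimated from the steps in low values, the main Bglap line held about 7.0, 9.4 and 3.4 reads in chondrocyte replicates 1 to 3, against 2756, 5017 and 1891 reads in osteoblast replicates 1 to 3. Fold values for osteocalcin therefore carry the counting error of a handful of reads, on top of the spread between libraries.

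Summed over the near-identical copies Bglap, Bglap2 and Bglap3, osteocalcin averaged 387 ± 147 in osteoblasts and 0.896 ± 0.317 RPKM in chondrocytes. The log2 difference of the sum was 7.63 ± 0.26 (SE; 95% confidence interval 7.02 to 8.23), with a limma adjusted p of 1.27e-06. Bglap3, a copy known in mice for expression outside bone, added almost nothing: it was at 0.378 and 0.631 RPKM in osteoblast replicates 1 and 2, and was listed at the table floor of 0.0001 in osteoblast replicate 3 and in all chondrocyte libraries.

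As listed, the balance between the copies was steady in osteoblasts, though it depends on how shared reads were assigned, which is not stated. Bglap made up 57.7%, 61.5% and 56.6% of the sum of Bglap and Bglap2 in osteoblast replicates 1 to 3. In chondrocytes the share was 54.2%, 62.6% and 37.1%, from a few reads in each library. A second line of Bglap in the table, which matched no entry of the RefSeq or GENCODE tables used, carried 1.23, 1.97 and 3.13 RPKM in osteoblasts, against 0.127 RPKM in chondrocyte replicate 2 and the floor in the other chondrocyte libraries.

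Osteocalcin varied among the sorted libraries, against several osteoblast and osteocyte genes and with other genes. Bglap and Bglap2 were at 1.49 and 1.36 times their group mean in osteoblast replicate 2, the library in which the mineral and osteocyte genes were lowest. There Ibsp, a mineral-binding sialoprotein, was at 0.738 times its group mean, Dmp1, a phosphoprotein of osteocytes, at 0.772, Phex, a peptidase that controls phosphate, at 0.638 and Sost, a Wnt inhibitor of osteocytes, at 0.724. In replicate 3 the order turned, with Bglap and Bglap2 at 0.712 and 0.793 and Ibsp, Dmp1, Phex and Sost at 1.33, 1.32, 1.48 and 1.37 times their means. These genes were set beside osteocalcin after their values had been seen, and 3 replicates of a group allow no test. Other osteoblast markers were also lowest in osteoblast replicate 2 and highest in replicate 3. In replicates 1 to 3 Sp7 stood at 115, 108 and 134 RPKM, Runx2 at 36.0, 34.1 and 37.3 and Alpl at 260, 246 and 261. Col1a1 was instead highest in replicate 2, at 0.972, 1.06 and 0.966 times its mean in osteoblast replicates 1 to 3.

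Some other genes were, like osteocalcin, highest in osteoblast replicate 2 and lowest in replicate 3. Mmp13, a collagenase of bone and hypertrophic cartilage, stood at 97.1, 150 and 85.6 RPKM in osteoblast replicates 1 to 3. Among fibroblast markers Dcn was at 0.942, 1.29 and 0.768 times its mean, and Dpt, dermatopontin, at 27.3, 41.0 and 13.5 RPKM. Lum had that order too, at 431, 501 and 384 RPKM. Pi16 was instead lowest in replicate 2, at 0.347, 0.317 and 0.494 RPKM, and Scx was highest in replicate 1, at 57.1, 56.2 and 46.0 RPKM. The whole perichondrium and fibroblast list (Dpt, Pi16, Dcn, Lum and Scx) summed to 799, 987 and 675 RPKM, and the smooth muscle and pericyte list to 236, 288 and 221 RPKM. The part of other cell types in the osteocalcin values was not tested.

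**Figure D2:**
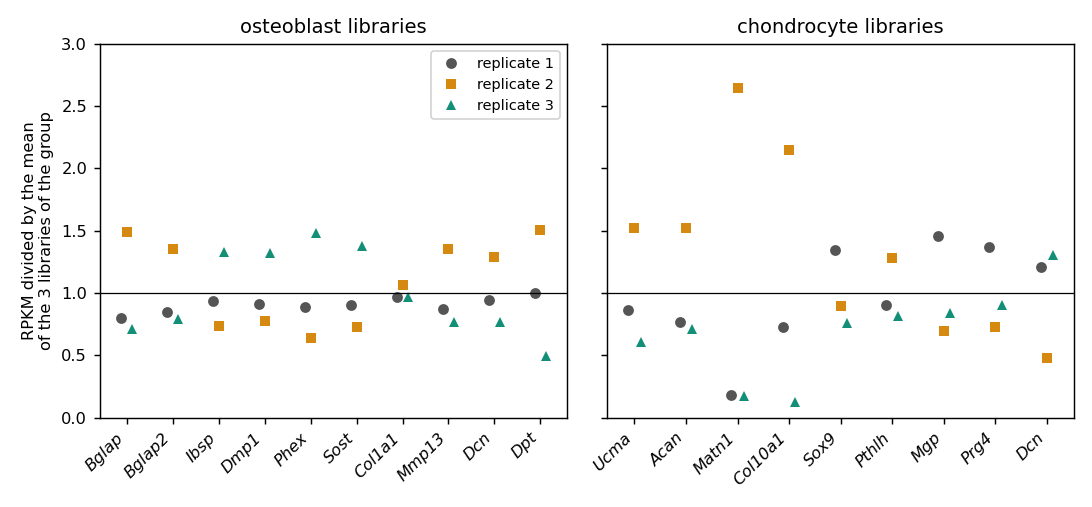
RPKM of each gene divided by the mean of its group's libraries, for osteoblast libraries (left) and chondrocyte libraries (right), with a symbol and colour for each replicate and a line at 1. Bglap and Bglap2 are highest in osteoblast replicate 2, where Mmp13, Dcn and Dpt are also highest and Ibsp, Dmp1, Phex and Sost lowest, and Ucma, Acan, Matn1, Col10a1 and Pthlh are highest in chondrocyte replicate 2, where Mgp, Prg4 and Dcn are lowest and Sox9 is in between.

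Ucma, also called GRP, is a small secreted protein of cartilage with an unusually high density of Gla residues, described from the resting zone and the upper growth plate. It had the largest difference of any member. Ucma stood at 1.26, 1.25 and 0.921 RPKM in osteoblasts, against 802, 1412 and 564 RPKM in chondrocytes. No osteoblast library came near any chondrocyte library.

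Mean Ucma was 1.14 ± 0.194 RPKM in osteoblasts and 926 ± 437 RPKM in chondrocytes, 809-fold lower in osteoblasts, with a log2 difference of -8.66 ± 0.30 (SE) and a limma adjusted p of 1.50e-06. By mean RPKM Ucma ranked 10841 in osteoblasts and 23 in chondrocytes among the 23364 symbols.

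The table carried Ucma in 3 lines, and they differ by whole exons. The shorter lines lack exon 4 (chr2:4981238-4981336, GRCm38, plus strand) or exon 2 (chr2:4976655-4976720), whose sequences are shown because they tell the splice forms apart.
Ucma exon 2: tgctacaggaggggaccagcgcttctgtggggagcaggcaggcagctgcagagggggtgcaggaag
Ucma exon 4: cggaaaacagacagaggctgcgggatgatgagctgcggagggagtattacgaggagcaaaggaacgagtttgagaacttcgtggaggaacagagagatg

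In chondrocytes the line with all 5 exons held 93.1%, 90.2% and 92.1% of Ucma RPKM in replicates 1 to 3. The line without exon 4 held 5.95%, 8.50% and 6.65%, and the line without exon 2 held 0.987%, 1.27% and 1.29%. As listed, the full-length form thus dominated in each chondrocyte library while the sum varied 2.50-fold between them. The 3 lines share exons 1, 3 and 5. How reads of shared exons were assigned is not stated, so the shares are uncertain. In osteoblasts the full-length line stood for about 31.7, 32.2 and 21.0 reads, too few to describe the shares of the short forms. The short lines stood at 0.176 RPKM at most in any osteoblast library.

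Mgp, which binds calcium mineral and bone morphogenetic proteins and keeps cartilage and arteries from mineralizing in mice, was abundant in both cell types and highest in cartilage. It stood at 319, 269 and 277 RPKM in osteoblasts, against 2626, 1256 and 1513 RPKM in chondrocytes. The lowest chondrocyte library was still above the highest osteoblast library, and chondrocyte replicate 1 was well above the others.

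Mean Mgp was 288 ± 26.9 RPKM in osteoblasts and 1798 ± 728 RPKM in chondrocytes, 6.24-fold lower in osteoblasts (log2 difference -2.57 ± 0.26 SE, limma adjusted p = 0.000138). It ranked 147 in osteoblasts and 14 in chondrocytes by mean RPKM. In osteoblasts Mgp was on the level of osteocalcin: the sum of Bglap and Bglap2 was 0.991, 2.07 and 1.04 times Mgp in replicates 1 to 3.

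Mgp is also known from vascular smooth muscle. The smooth muscle list (Acta2, Myh11, Tagln, Cnn1 and Rgs5) summed to 221 to 288 RPKM in osteoblasts and 3.91 to 12.1 RPKM in chondrocytes. Acta2 and Tagln were the bulk of the osteoblast sums. Myh11, a myosin of smooth muscle, stayed between 0.0618 and 0.162 RPKM in the osteoblast libraries and between 0.0541 and 0.114 RPKM in the chondrocyte libraries. Endothelial markers (Pecam1, Cdh5, Kdr, Tek and Emcn) summed to 0.604 to 2.14 RPKM in osteoblasts and 2.08 to 4.97 RPKM in chondrocytes. The part of vascular cells in the Mgp values was not tested.

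The balance of Mgp and Ucma varied among the chondrocyte libraries. Ucma was 0.306, 1.12 and 0.373 times Mgp in replicates 1 to 3. In replicate 2 Ucma was at 1.52 times its group mean and Mgp at 0.698 times, the highest and the lowest value of each gene. Matn1, a matrilin of cartilage, was at 2.65 times its mean in that library, Col10a1, the collagen of hypertrophic cartilage, at 2.15 and Acan, the main cartilage proteoglycan, at 1.52. Col2a1 and Col9a1 were at 1.29 and 1.27 times their means in that library. Not all cartilage genes were above their means: Sox9, the factor that drives cartilage formation, was at 0.893 times its mean there. Prg4, the lubricin of joint surfaces, was at 0.729 and Dcn, a fibroblast and perichondrium proteoglycan, at 0.479. From the list of Dcn, Dpt, Lum and Scx were also lowest in that library. Pi16 of that list was instead highest there, at 0.0133, 0.0794 and 0.0497 RPKM in chondrocyte replicates 1 to 3. Pthlh, a signal of resting cartilage from the same list as Prg4, was highest in that library, at 1.59, 2.26 and 1.44 RPKM in chondrocyte replicates 1 to 3. Also from that list, Sfrp5 was lowest in chondrocyte replicate 2, at 3.39, 2.06 and 2.94 RPKM. Gdf5 was nearly level, at 9.07, 9.15 and 9.24 RPKM. The genes listed with Col10a1 as hypertrophic markers were split. Ihh was highest in that library, at 1.35, 6.93 and 1.18 RPKM, and Mmp13 was lowest, at 0.356, 0.288 and 0.520 RPKM. The part of cell composition in this pattern was not tested.

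Gas6 is the ligand of the receptor kinases Tyro3, Axl and Mertk, and its Gla domain binds phosphatidylserine on dying cells. It stood at 250, 207 and 192 RPKM in osteoblasts, against 37.7, 33.3 and 65.1 RPKM in chondrocytes. Every osteoblast library was above every chondrocyte library, and chondrocyte replicate 3 was the highest of its group.

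Mean Gas6 was 216 ± 30.4 RPKM in osteoblasts and 45.4 ± 17.3 RPKM in chondrocytes. It was 4.77-fold higher (log2 difference 2.28 ± 0.25 SE, limma adjusted p = 0.000185). Gas6 was at 1.44 times its group mean in chondrocyte replicate 3, the library in which Col1a1 was at 1.89 times its mean. The other osteoblast markers were not raised there. Sp7, Ibsp and Alpl were at 0.761, 0.804 and 0.777 times their means, and Runx2 was at 9.36, 9.06 and 9.34 RPKM in chondrocyte replicates 1 to 3. Myeloid markers (Ptprc, Csf1r, Lyz2, Cd68, Emr1 and Itgam) were, like Gas6, higher in osteoblasts than in chondrocytes. They summed to 1.21 to 6.44 RPKM in chondrocytes, with 6.44 RPKM in chondrocyte replicate 3. In osteoblast replicates 1 to 3 they summed to 13.9, 17.7 and 17.3 RPKM, lowest in replicate 1, where Gas6 was highest. Osteoclast markers (Acp5, Ctsk, Mmp9, Calcr and Oscar) summed to 202 to 217 RPKM in osteoblasts and 47.0 to 165 RPKM in chondrocytes, nearly all of it Ctsk, with Calcr at the table floor in every library. The part of these cells in the Gas6 difference was not tested.

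The receptors of Gas6 differed in direction. Tyro3 was higher in osteoblasts, at 5.86 ± 0.720 against 2.36 ± 1.22 RPKM in chondrocytes (log2 difference 1.10, limma adjusted p = 0.00974). Mertk, the receptor best known for the uptake of dying cells, was lower, at 8.80 ± 0.277 against 15.9 ± 3.16 RPKM (log2 difference -0.77, limma adjusted p = 0.00191). Axl was not called, with 23.1 ± 2.45 in osteoblasts and 29.0 ± 9.21 RPKM in chondrocytes. Without chondrocyte replicate 2 it was called lower (log2 difference -0.50, limma adjusted p = 0.0147), as it was under median-of-ratios scaling (-0.76, limma adjusted p = 0.00748). Gas6 was 5.71 ± 0.297 times the summed level of the 3 receptors in osteoblasts and 0.941 ± 0.202 times in chondrocytes. The exact two-sided permutation test of that ratio cannot go below p = 0.1 with 3 libraries against 3, which is the value it gave. Gprc6a and Gpr158, proposed receptors of osteocalcin, were at or near the table floor, and of them only Gpr158 in osteoblast replicate 3 showed a value, 0.00528 RPKM.

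In RPKM as deposited, the enzymes of the cycle were expressed in both cell types at similar levels. Ggcx stood at 14.6, 16.3 and 13.0 RPKM in osteoblasts, against 17.8, 18.9 and 17.9 RPKM in chondrocytes. Vkorc1 stood at 103, 118 and 96.8 RPKM in osteoblasts, against 117, 155 and 145 RPKM in chondrocytes. The Ggcx groups lay close without overlap, and the Vkorc1 groups met, since osteoblast replicate 2 was just above chondrocyte replicate 1.

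Ggcx averaged 14.7 ± 1.61 RPKM in osteoblasts and 18.2 ± 0.604 RPKM in chondrocytes, 0.805 times as high (log2 difference -0.30 ± 0.10 SE, limma adjusted p = 0.0344). Vkorc1 averaged 106 ± 10.7 RPKM in osteoblasts and 139 ± 19.6 RPKM in chondrocytes, 0.761 times as high (log2 difference -0.39 ± 0.14 SE, limma adjusted p = 0.0426). Neither call was firm. That of Ggcx was lost without osteoblast replicates 1 or 3 or chondrocyte replicates 1 or 3 (adjusted p 0.0934, 0.117, 0.0688 and 0.0558), and that of Vkorc1 without any one osteoblast library or without chondrocyte replicates 2 or 3 (0.122, 0.0503, 0.135, 0.0838 and 0.0891). Under median-of-ratios scaling, which sets the typical gene near 0, the differences were larger, -0.78 for Ggcx and -0.89 for Vkorc1 (limma adjusted p = 0.00100 and 0.00338). They were also larger under TPM scaling, at -0.45 and -0.55 (limma adjusted p = 0.00376 and 0.0111). Upper-quartile scaling gave -0.73 and -0.84 (limma adjusted p = 0.000897 and 0.00318).

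Between the cell types the ratio of the enzyme transcripts to each other differed little, while the ratio of their substrates to Ggcx differed more. Vkorc1 was 7.23 ± 0.188 times Ggcx in osteoblasts and 7.63 ± 0.905 times in chondrocytes. The 5 Gla proteins among the members summed to 886, 1031 and 757 RPKM in osteoblast replicates 1 to 3, against 3467, 2702 and 2143 RPKM in chondrocyte replicates 1 to 3. Relative to Ggcx the sum was 60.7 ± 2.66 in osteoblasts and 153 ± 38.6 in chondrocytes, and the ranges, 58.1 to 63.4 in osteoblasts and 120 to 195 in chondrocytes, did not overlap.

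The make-up of the sum differed. In osteoblasts osteocalcin (Bglap and Bglap2) was 42.5 ± 9.87%, Mgp 32.9 ± 5.91%, Gas6 24.5 ± 4.16% and Ucma 0.128 ± 0.0118% of it. In chondrocytes Mgp was 64.3 ± 15.6%, Ucma 33.9 ± 16.0%, Gas6 1.79 ± 1.09% and osteocalcin 0.0327 ± 0.0109%. The 5 genes took 0.285 ± 0.0356% of all RPKM in osteoblasts and 0.995 ± 0.236% in chondrocytes.

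**Figure D3:**
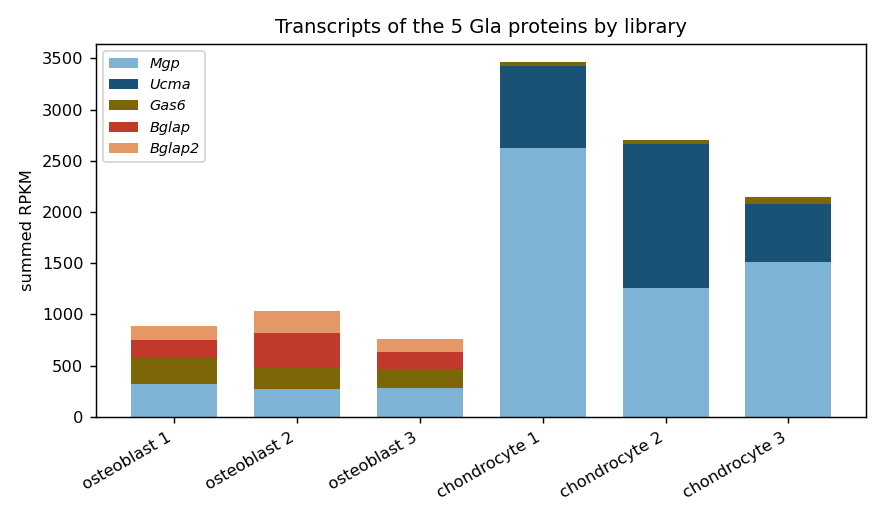
Summed RPKM of the 5 Gla proteins in each library, stacked by gene, with the osteoblast libraries left of the chondrocyte libraries. The sums lie between 757 and 1031 RPKM in osteoblasts and between 2143 and 3467 RPKM in chondrocytes, with osteocalcin and Gas6 visible mainly in osteoblasts and Ucma in chondrocytes.

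Other genes of the pathway were taken from 5 lists, of which 35 genes are reported; of these, 22 passed the filter on low values; 12 were called higher in osteoblasts, 4 lower and 6 were not called, beside 55.5% higher and 13.5% lower among all tested genes. Their median log2 difference was 0.56, against 0.43 for all tested genes. Under median-of-ratios scaling 7 were called higher and 7 lower.

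Among the other Gla proteins 5 of 12 were tested. Pros1, protein S, an anticoagulant that also acts on Tyro3 and Mertk, stood at 47.7, 44.2 and 41.0 RPKM in osteoblasts, against 16.6, 11.4 and 17.6 RPKM in chondrocytes (log2 difference 1.50 ± 0.16 SE, limma adjusted p = 0.000180). Pros1 thus lay on the same side as Gas6. The transmembrane Gla proteins were low: Prrg4 had 2.21 ± 0.365 in osteoblasts and 0.0372 ± 0.0232 RPKM in chondrocytes (log2 difference 1.62, limma adjusted p = 1.91e-05), and its chondrocyte values would not have passed the filter. Prrg1 was also called higher (0.52, limma adjusted p = 0.0110) and Prrg2 lower (-0.33, limma adjusted p = 0.0172), the Prrg2 call being lost without osteoblast replicates 2 or 3 (0.0574 and 0.0681). Prrg1 was not called under median-of-ratios scaling (0.24, limma adjusted p = 0.126). Prrg3 was not called, at 1.96 and 1.45 RPKM in osteoblasts and chondrocytes (0.33), but was called higher without chondrocyte replicate 3 (0.60, limma adjusted p = 0.00722). The clotting factors F2, F7, F9, F10, Proc and Proz, made mainly by the liver, had no library above 0.239 RPKM, and hepatocyte markers (Alb, Apoa1, Ttr and Serpina1a) summed to at most 0.150 RPKM in any library.

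The 4 genes described for vitamin K reduction and carboxylation besides the members were each called. Nqo1, a quinone reductase able to reduce vitamin K, was lower in osteoblasts, at 0.947, 1.13 and 1.50 RPKM, against 11.9, 14.8 and 7.83 RPKM in chondrocytes (log2 difference -2.48 ± 0.22 SE, limma adjusted p = 6.55e-05). The other reductases went the opposite way. Aifm2, known as FSP1, which reduces vitamin K and guards membranes from lipid peroxidation, stood at 5.26, 4.96 and 5.23 RPKM in osteoblasts, against 1.66, 1.03 and 1.13 RPKM in chondrocytes (log2 difference 1.45 ± 0.13 SE, limma adjusted p = 6.55e-05). For each of these genes the groups did not overlap.

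Vkorc1l1, the paralog of Vkorc1, had 12.8 ± 1.02 in osteoblasts and 5.88 ± 0.357 RPKM in chondrocytes (log2 difference 1.00 ± 0.10 SE, limma adjusted p = 0.000116). Vkorc1 was 8.36 ± 1.46 times Vkorc1l1 in osteoblasts and 23.6 ± 2.22 times in chondrocytes. Calu, calumenin, an endoplasmic reticulum protein that restrains carboxylation, was at 232 ± 15.1 and 155 ± 24.3 RPKM in osteoblasts and chondrocytes (0.60, limma adjusted p = 0.00758), a call that was lost under median-of-ratios scaling (0.09, limma adjusted p = 0.665).

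Of the 10 genes described for lipoprotein uptake, by which vitamin K enters cells, and for its breakdown, 6 were tested. Lrp8 (0.71), Scarb1 (0.78) and Cyp4f16, a relative of the enzyme that breaks down vitamin K in humans (0.77), were called higher (limma adjusted p = 0.0107, 0.0368 and 0.000545). Scarb1 overlapped between the groups and its call was lost without any osteoblast library or without chondrocyte replicates 1 or 3 (0.0892, 0.103, 0.0665, 0.113 and 0.0976). Under median-of-ratios scaling Lrp8 and Scarb1 were not called (0.44 and 0.29, limma adjusted p = 0.130 and 0.471). Lrp1 (76.1 and 73.5 RPKM in osteoblasts and chondrocytes), Apoe (33.7 and 15.9) and Cyp4f13 (3.52 and 3.40) were not called, though Cyp4f13 was called lower under median-of-ratios scaling (-0.35, limma adjusted p = 0.0495). Apoe was at 2.58 RPKM in chondrocyte replicate 2 against 23.9 and 21.1 in replicates 1 and 3, and was called higher in osteoblasts without that library (0.54, limma adjusted p = 0.0355).

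Convertases that cut propeptides from secreted proteins, Gla proteins among them, also went both ways. Furin was lower in osteoblasts at 34.7 ± 1.05 RPKM, against 47.4 ± 4.42 RPKM in chondrocytes (log2 difference -0.44, limma adjusted p = 0.00711). Pcsk5 was higher at 10.3 ± 0.867 RPKM, against 3.97 ± 1.59 RPKM in chondrocytes (1.23, limma adjusted p = 0.00214), and Pcsk7 at 7.64 and 5.12 RPKM (0.50, limma adjusted p = 0.00311), a call lost under median-of-ratios scaling (0.06, limma adjusted p = 0.451). Pcsk6 was not called, with 47.2 ± 4.68 in osteoblasts and 60.2 ± 10.9 RPKM in chondrocytes. Without chondrocyte replicate 2 it was called lower (-0.47, limma adjusted p = 0.0113), and under median-of-ratios scaling as well (-0.83, limma adjusted p = 0.00186).

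**Figure D4:**
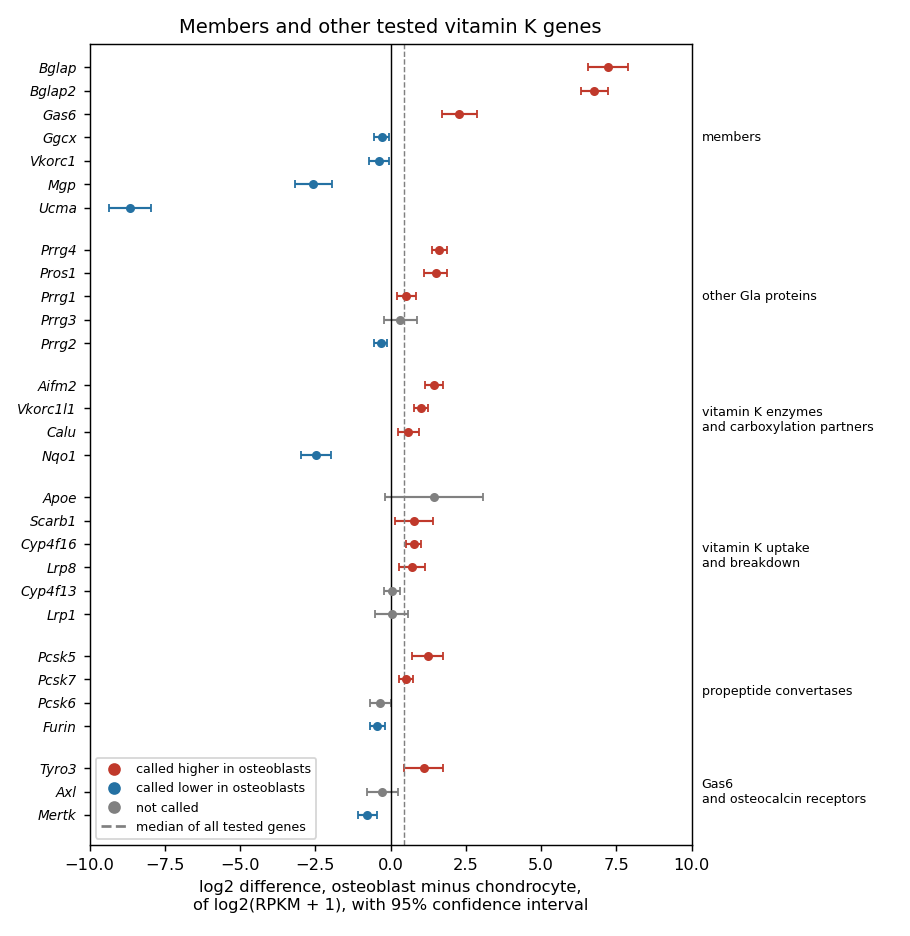
Log2 difference, osteoblast minus chondrocyte, of log2(RPKM + 1) with its 95% confidence interval for the 7 members and the 22 tested genes of the other lists, coloured by call, with a dashed line at the median of all tested genes (0.43). Bglap, Bglap2 and Ucma lie far outside the range of the other genes, and Ggcx and Vkorc1 lie just below 0.

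Genes with the pattern most like each of 4 members were sought by Pearson's r of log2(RPKM + 1) over the 6 libraries among 6737 tested genes of mean RPKM of at least 5. With 2 groups this measure follows the group difference first, and the 6 points share their libraries. Closest to Ucma were Col9a3, a chain of cartilage collagen IX (r = 0.9999), Mfi2, melanotransferrin (r = 0.9996), and Matn3, a cartilage matrilin (r = 0.9992). Col9a3 stood at 3.31, 4.05 and 3.03 RPKM in osteoblasts, against 1980, 3307 and 1374 RPKM in chondrocytes, and so shared the high value of chondrocyte replicate 2 with Ucma. Closest to Mgp were G0s2, an inhibitor of fat breakdown, Lmcd1 and Eif1a (r = 0.998, 0.997 and 0.997), and Lmcd1 stood at 7.17, 5.97 and 5.97 RPKM in osteoblasts, against 89.9, 47.8 and 48.6 RPKM in chondrocytes. Closest to Gas6 were Zdhhc20, Ndufb3 and Chst14 (r = 0.9996, 0.9986 and 0.9986). Closest to the sum of Bglap and Bglap2 were Glyr1, Csnk2a1 and Capza1 (r = 0.999 each), genes of broad use whose levels differed far less: Glyr1 averaged 24.9 RPKM in osteoblasts and 17.3 RPKM in chondrocytes.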

How the data were processed

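RNA-seq of 6 libraries was deposited by the authors as 1 table of RPKM for 31055 RefSeq transcripts; TopHat2 2.0.8 and build mm9 are named in the submitters' processing notes, while the counting program and its treatment of reads shared by near-identical genes are not stated. Every value carries an added 0.0001. Lines sharing a symbol were added up. The 11218 symbols that reached 1 RPKM in 3 or more libraries were tested by limma 3.58.1 (R 4.3.3) after log2(RPKM + 1), with a variance trend and robust moderation, two-sided, with Benjamini-Hochberg adjustment over all of them. A gene near 0 in one cell type passes that filter only through the other. Tested on simulated data (11218 genes, 200 of them altered), it called 76% of genes altered by 1 on the log2 scale and 99% of genes altered by 2. Of its calls there, 6.42% were false. The altered genes were drawn from the better expressed ones, were far fewer than the genes called here, and no offset was shared by all genes. These rates therefore do not cover low genes or such an offset.

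Reads per library were estimated from steps of low values and GENCODE M21 transcript lengths; 57.4% of 16503 values under 20 reads lay no more than 0.05 from a whole read (10% would by chance), and the estimate was fitted to part of these values. Reads are not independent molecules. Members and lists were chosen with earlier results of these data known, and 2 called genes of the lists, left out of all list counts, are not reported here. The text names all members, every called gene of the 5 pathway lists, uncalled ones of at least 5 RPKM, and the 3 genes most like 4 members; Prrg3, Cyp4f13, untested genes, single marker genes and the genes set beside osteocalcin, Ucma and Mgp within a group were named after their values were seen. Sequences are from GENCODE M21 (GRCm38) and RefSeq (GRCm38.p6), not mm9, so coordinates describe those builds only. Alternatives covered pseudocount, filter, scaling, moderation, replicate block, transcript choice, limma treat, summed Bglap copies and each library left out.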

Additional observations from a re-analysis of the deposited data

How the results depend on the processing

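Bglap, Bglap2, Mgp, Ucma and Gas6 kept their direction and call under every alternative run. Ggcx and Vkorc1 kept their direction, but their calls were lost with the replicate block (limma adjusted p = 0.0704 and 0.0550), under limma treat against a log2 difference of 1 (adjusted p of 1 for each), and Vkorc1 also without a filter (0.0574); the block also ended the call of Prrg2 (0.0540) and made one for Apoe (log2 difference 1.44, 0.0439), and changed no other call among the members and the listed pathway genes; 2 members were called lower with the block, 2 under limma treat, and 2 to 3 with a library left out, against 4 in all. No pairing by replicate number was seen: deviations of same-numbered libraries correlated at 0.0791, 0.00965 and -0.155, and those of differently numbered ones at -0.150 to 0.126. Deviations from the mean of so few libraries cannot exclude a pairing. The cause of the lost calls was not tested.

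All genes called higher and lower numbered 4092 and 885 with a mean RPKM of at least 5, where fewer genes are tested, 3345 and 3533 under median-of-ratios, 3639 and 3241 under upper-quartile scaling, and 865 and 334 under limma treat. Other vitamin K genes called higher numbered 7 with a mean RPKM of at least 5 and under median-of-ratios or upper-quartile scaling, and 2 under limma treat; those called lower numbered 7 under median-of-ratios scaling and 1 under limma treat. Signs turned for Lrp1 (-0.469, -0.126 and -0.413 under median-of-ratios, TPM and upper-quartile scaling, -0.188 without osteoblast replicate 1 and -0.125 without chondrocyte replicate 2, within a range up to 0.179 with a library left out) and for Cyp4f13 (-0.349, -0.0780 and -0.304 under the same scalings and -0.0459 without chondrocyte replicate 3, within a range up to 0.135 with a library left out). Depth limits osteocalcin in chondrocytes, at under 10 estimated reads per line, and Ucma in osteoblasts.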
